A study of Mus musculus with 23 samples.

Results

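The Dectin and DCIR lectin cluster was described here through 9 genes of mouse chromosome 6, *Clec4a1*, *Clec4a2*, *Clec4a3*, *Clec4a4*, *Clec4b1*, *Clec4d*, *Clec4e*, *Clec4n* and *Clec7a*. They were found by symbol among the 47729 gene identifiers of the count table, of which 47224 could be given a symbol. All 9 were among the 19597 genes that passed the filter on low counts. The RNA came from dendritic cells (DCs) sorted from the spleen of wild type Balb/C mice that were either untreated or treated with TLI, an abbreviation the labels do not spell out. The 4 sorted subsets were DC1a (CD8hi CD172-), DC1b (CD8Int CD172+), DC2 (CD8lo CD172hi) and DC3 (CD8- CD172lo). Untreated mice gave 2 libraries of each subset (pools 1 and 2), and TLI mice gave 4 libraries of DC1a, DC1b and DC3 and 3 of DC2 (pools 1, 3 and 4), 23 libraries in all. The labels give each library a numbered pool or set of mice. Subsets with the same pool number were taken to share animals, which the labels do not state outright. All untreated libraries and TLI pools 1 and 2 were labelled batch 1, and TLI pools 3 and 4 batch 2.

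C-type lectin receptors are surface proteins with which myeloid cells bind sugars and lipids of microbes and of damaged cells. *Clec7a* encodes Dectin-1, the receptor for fungal beta-glucan, which signals through a tyrosine motif in its own tail. *Clec4n* (Dectin-2), *Clec4d* (MCL, also called Dectin-3), *Clec4e* (Mincle) and *Clec4b1* (DCAR) lack such a motif and signal through the adaptor FcR gamma, the product of *Fcer1g*, to the kinase Syk. The DCIR genes *Clec4a2* (DCIR1) and *Clec4a4* (DCIR2) encode receptors with an inhibitory tyrosine motif (ITIM), and *Clec4a3* (DCIR3) and *Clec4a1* (DCIR4) are their close relatives. DCIR2 carries the epitope of the antibody 33D1, which marks CD8-negative spleen DCs.

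On GRCm38, 8 of the genes lay in the same stretch of chromosome 6. They ran from *Clec4a1* (chromosome 6, 122921848 to 122934619, plus strand) through *Clec4a3* (122952515 to 122969875), *Clec4a4* (122990367 to 123024105), *Clec4b1* (123049962 to 123071555), *Clec4a2* (123106428 to 123143999), *Clec4n* (123229843 to 123247021) and *Clec4d* (123262111 to 123275265) to *Clec4e* (123281789 to 123289870, minus strand). The start of *Clec4b2*, which is not a member, lay between *Clec4a2* and *Clec4n*. *Clec7a* lay apart at 129461591 to 129472779 on the minus strand. The annotation types *Clec7a* as a polymorphic pseudogene and the other 8 members as protein coding. Whether this bears on the *Clec7a* counts was not tested. No member overlapped a gene of the other strand. The span of *Clec4a2* overlapped that of *Gm44132* on its own strand, but no 76-base window of its annotated transcripts occurred in those of *Gm44132*. Whether counts were shared between them was not tested. Of the distinct 76-base windows of the annotated transcripts, splice junctions included, 12.6% of those of *Clec4a4* also occurred in *Clec4a2*, 3.18% of those of *Clec4a2* occurred in *Clec4a4* or *Clec4b1*, and 0.894% of those of *Clec4b1* occurred in *Clec4a2*, while the windows of the other 6 members were not shared. Reads from such windows could have been assigned to the wrong one of these 3 genes.

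The 120 bases that precede the start of *Clec4b1*, of the nearby *Clec4b2* (DCAR1), of *Clec4e* and of *Clec7a* are shown. *Clec4b1* and *Clec4b2* were chosen as close copies whose levels ran in opposite directions over DC1a and DC2. *Clec4e* and *Clec7a* are the other members that hold the same short motif. The sequences are those of RefSeq on GRCm38.p6, read 5′ to 3′ on the strand of the gene, and no annotated exon lies in them. Capitals mark AGAGGAA or its reverse complement TTCCTCT, a purine-rich core of the type bound by the myeloid factor PU.1, which was chosen after the letters were seen.
Clec4b1, chr6:123049842-123049961, plus strand: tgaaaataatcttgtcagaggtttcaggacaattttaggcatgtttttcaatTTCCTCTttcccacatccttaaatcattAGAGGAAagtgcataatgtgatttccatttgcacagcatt
Clec4b2, chr6:123172773-123172892, plus strand: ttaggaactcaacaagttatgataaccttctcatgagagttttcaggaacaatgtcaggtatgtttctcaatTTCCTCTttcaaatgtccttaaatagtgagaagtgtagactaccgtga
Clec4e, chr6:123289872-123289991, minus strand: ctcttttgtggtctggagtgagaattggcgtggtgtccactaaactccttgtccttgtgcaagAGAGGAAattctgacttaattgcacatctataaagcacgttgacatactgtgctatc
Clec7a, chr6:129472780-129472899, minus strand: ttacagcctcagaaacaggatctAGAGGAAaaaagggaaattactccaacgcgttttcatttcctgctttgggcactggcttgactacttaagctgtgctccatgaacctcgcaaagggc
*Clec4b1* held the motif at 68 to 62 bases before its start on the minus strand and again at 40 to 34 bases on the plus strand. The motif of *Clec4e* lay 57 to 51 bases, that of *Clec7a* 97 to 91 bases and that of *Clec4b2* 48 to 42 bases (minus strand) before the start. Of 27025 promoters in the table, 4.14% held at least 1 such motif in this window and 0.185% held 2. Of the members, 7 were in the table, 6 had a window of this length, and the windows of *Clec4a1*, *Clec4a3* and *Clec4d* did not hold these letters. The *Clec4b1* and *Clec4b2* windows were identical at 79 of 100 aligned bases. These matches describe the sequence and are not binding sites.

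The libraries held 19256447 to 36997890 assigned counts (median 27199618). Levels are given as CPM, counts relative to the library total scaled by the trimmed mean of M values (TMM), and a floor of 3 counts corresponded to 0.0862 to 0.147 CPM depending on the library. Floors and zeros cover counting error only, since the amplified cDNA carried no molecular identifiers. In all 8 groups the 5 DC markers *Itgax*, *Flt3*, *Zbtb46*, *H2-Ab1* and *Cd74* exceeded that floor. *Cd8a* was at 132 to 347 CPM in untreated DC1b, 0.374 to 0.573 CPM in untreated DC2, and 336, 352, 85.5 and 0.363 CPM in the TLI DC1b libraries of pools 1 to 4. The library labelled TLI DC1b pool 4 therefore held almost none of the CD8 transcript that its gate names, and the calls and folds of TLI DC1b without it are given after the members. Untreated DC3 pool 2 held 37.9 CPM of *Cd8a* against 0.352 CPM in pool 1. *Sirpa*, the gene of CD172a, was at 176 to 237 CPM in untreated DC2 and at 34.0, 8.79 and 282 CPM in the TLI DC2 libraries of pools 1, 3 and 4, so that pool 3 held little of the transcript of its gate. Without TLI DC2 pool 3, the *Clec4d* call between TLI DC2 and DC1a was lost, and no other call between TLI DC2 and another subset was.

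Transcripts of other cell types moved with the subsets. The summed CPM of 8 monocyte and macrophage markers ranged from 827 to 863 in untreated DC1a, 3106 to 5174 in DC1b, 4846 to 5349 in DC2 and 1639 to 2693 in DC3, and after TLI from 533 to 1841, 8645 to 25878, 5697 to 11886 and 1329 to 3650. All 8 were detected above the floor in some library of untreated DC2, TLI DC1b, TLI DC2 and TLI DC3, and *Fcgr1* was at 0 in untreated DC1a and DC1b. The summed CPM of 9 neutrophil markers was 23408, 1445, 1887 and 10209 in TLI DC1b pools 1 to 4, all 9 of them detected, and 2152, 204 and 100 in TLI DC2, while it lay between 0 and 88.1 in every other library and all 9 markers were at 0 in untreated DC3. The 5 plasmacytoid DC markers summed to 3290 and 4775 CPM in untreated DC1b, with *Siglech* at 982 and 1654 CPM, against 51.4 to 161 CPM in the other untreated libraries and 25.7 to 141 CPM in the TLI libraries. The 6 erythroid markers summed to 18564 to 138351 CPM in the TLI libraries of batch 1, in all 4 subsets. They summed to 171 to 7925 CPM in those of batch 2 and to 51.2 to 2138 CPM in untreated libraries. The 5 NK cell markers reached 2624 CPM in a TLI DC3 library. The 5 B cell and 5 T cell markers reached at most 264 and 263 CPM, each in a DC3 library. The 8 markers of the CD8 lineage of conventional DCs summed to 3056 to 4687 CPM in DC1a, 919 to 1872 in DC1b, 273 to 507 in DC2 and 2329 to 3435 in DC3 over both treatments, and the 5 markers of the other lineage to 9.98 to 21.6, 13.1 to 305, 22.6 to 487 and 15.8 to 85.0. The part of these transcripts in the lectin levels was not tested, and in such bulk samples a smaller share of expressing cells and less RNA per cell cannot be told apart.

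**Figure D1:**
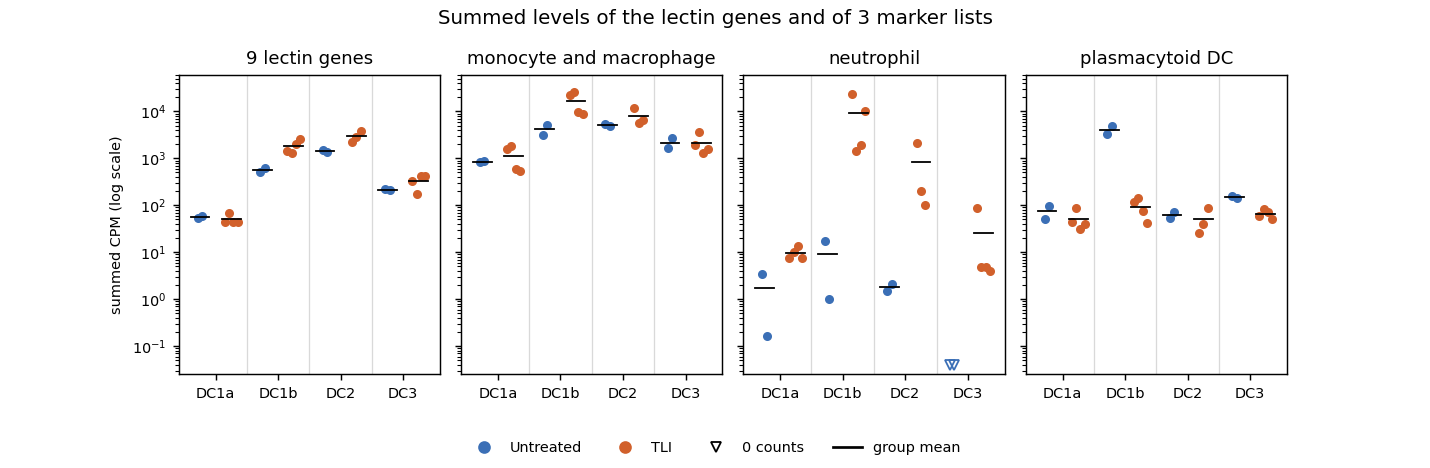
Summed level of the 9 lectin genes and of the monocyte and macrophage, neutrophil and plasmacytoid DC marker lists in each library, in CPM on a log scale, by sorted subset (untreated in blue, TLI in orange, black line the group mean). The lectin sum lay at 43.1 to 69.3 CPM in TLI DC1a and reached 3820 CPM in TLI DC2, and the neutrophil sum was high in TLI DC1b.

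Summed over the 9 genes, the cluster was lowest in DC1a and highest in DC2. The sums were 53.6 and 60.0 CPM in untreated DC1a, 508 and 638 in DC1b, 1507 and 1359 in DC2, and 217 and 210 in DC3. After TLI they were 43.1 to 69.3 CPM in DC1a, 1442, 1330, 2046 and 2562 in DC1b, 2260, 2879 and 3820 in DC2, and 334, 178, 427 and 411 in DC3. No DC1a library overlapped any library of another subset in this sum.

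**Figure D2:**
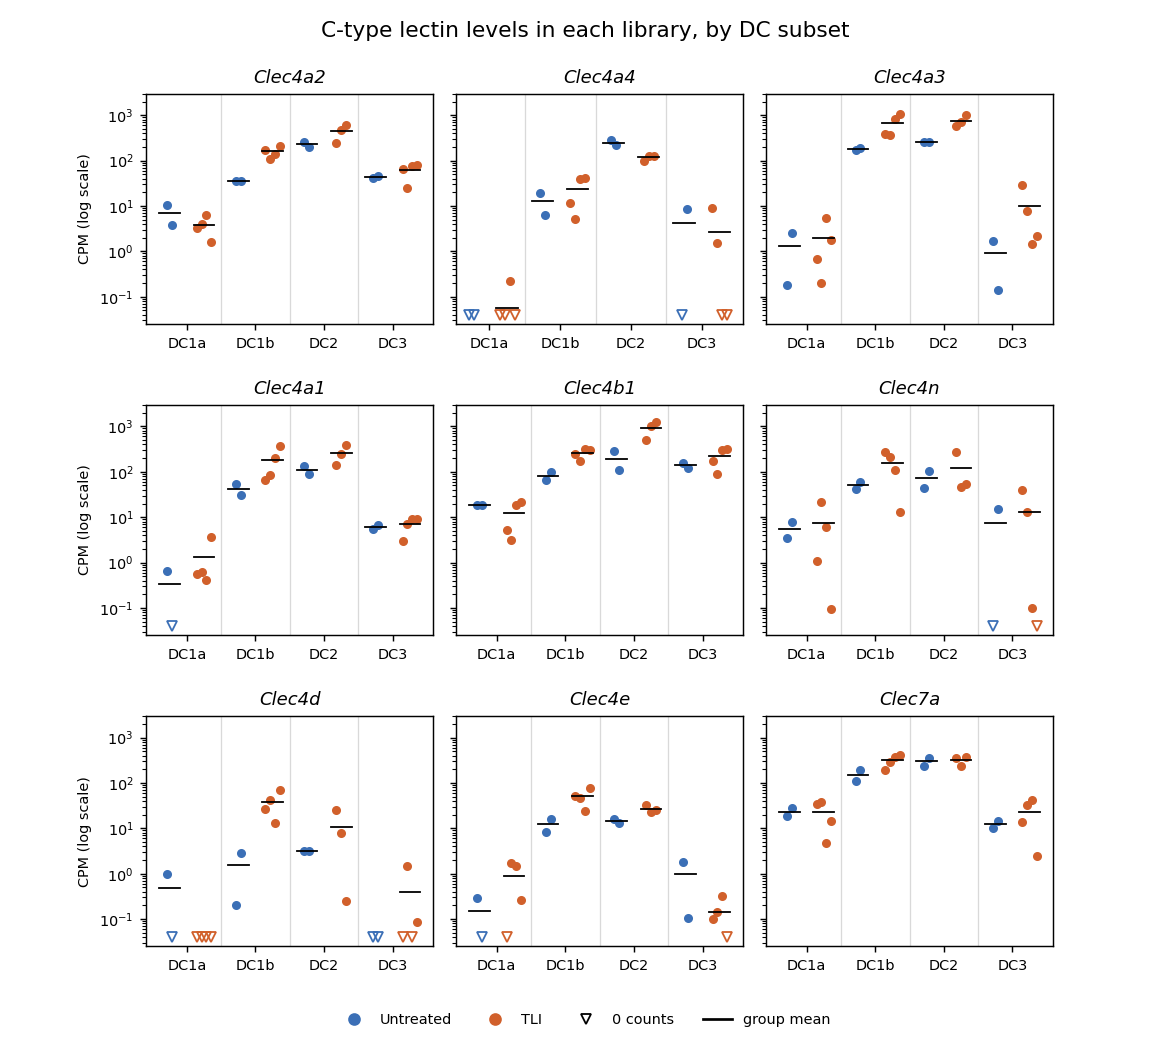
CPM of each of the 9 lectin genes in every library on a log scale, by sorted subset, with untreated libraries in blue, TLI libraries in orange, open triangles for libraries with 0 counts and a black line for the group mean. *Clec4b1* was high in DC3 as well as in DC1b and DC2, whereas *Clec4a3* and *Clec4e* were low in DC3.

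Differences between subsets were fitted for all 19597 genes with edgeR's quasi-likelihood test, and a gene was called at an adjusted p under 0.05 (Benjamini-Hochberg over all genes of the comparison). In untreated mice 1 member was called between DC1b and DC1a, 4 between DC2 and DC1a, 1 between DC3 and DC1a, and 2 between DC3 and DC2, where 0.837%, 1.91%, 0.184% and 0.837% of all genes were called. No member was called between untreated DC2 and DC1b (0.398% of all genes) or between DC3 and DC1b (0.393%). There 2 and 4 members had an unadjusted p under 0.05, beside 1804 and 1652 of all 19597 genes, and DESeq2 called 1 and 3 members. The share of all genes that DESeq2 called is not given, here or below, so its counts are not a result about the members or lists. In TLI mice 7 members were called between DC1b and DC1a (1.42% of all genes), 7 between DC2 and DC1a (3.4%), 2 between DC3 and DC1a (0.75%), 4 between DC3 and DC1b (1.11%), and 6 between DC3 and DC2 (1.37%). None was called between TLI DC2 and DC1b (0.214% of all genes), where 2 had an unadjusted p under 0.05, beside 2042 of all genes, and DESeq2 called 1. Every called member was lower in DC1a than in the other subset, or lower in DC3 than in DC1b or DC2. The median log2 difference over the members was 4.99 for untreated DC2 against DC1a, 6.68 for TLI DC2 against DC1a and 5.84 for TLI DC1b against DC1a, beside medians over all genes of 0.11, 0.02 and 0.02. It was -4.22 for untreated and -4.90 for TLI DC3 against DC2, beside 0 and -0.03 over all genes.

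**Figure D3:**
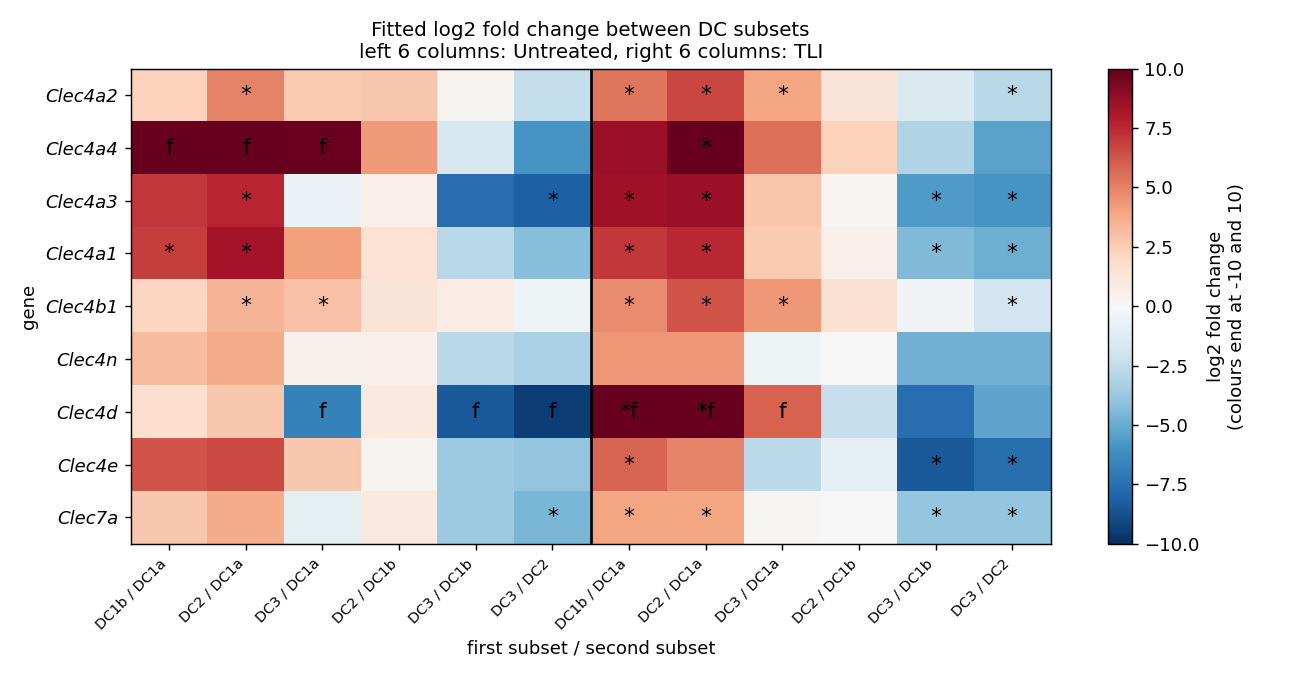
Fitted log2 fold change of the 9 lectin genes between subsets, with 6 untreated comparisons on the left and 6 TLI comparisons on the right. An asterisk marks an adjusted p under 0.05, and f marks a comparison in which a group had no library above the floor of 3 counts, whose fitted value is not a size. Of the asterisks, 8 stand in untreated and 26 in TLI comparisons, and *Clec4n* has none.

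Among the DCIR genes, *Clec4a2*, the receptor with the inhibitory motif that is found on many myeloid cells, was present in all subsets at different levels. Untreated DC1a held 10.5 and 3.78 CPM in pools 1 and 2, DC1b 36.2 and 34.7, DC2 253 and 203, and DC3 40.6 and 46.5. DC2 stood above all other untreated libraries, and DC1b and DC3 lay close together. DC2 exceeded DC1a by 31.8 times in the group means (log2 fold change 4.99 ± 0.68, SE, adjusted p = 0.000658), or by 60.3 times without untreated DC1a pool 1. The untreated differences of DC1b from DC1a (log2 2.31, adjusted p = 0.0943), of DC2 from DC1b (2.68, adjusted p = 0.0693) and of DC3 from DC2 (-2.39, adjusted p = 0.0799) did not pass the threshold.

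After TLI, *Clec4a2* was at 3.24, 4.07, 6.37 and 1.65 CPM in DC1a, 174, 106, 141 and 214 in DC1b, 245, 463 and 616 in DC2, and 65.3, 24.7, 75.2 and 79.7 in DC3. The 4 subsets did not overlap, in the order DC1a, DC3, DC1b and DC2. *Clec4a2* was higher than in DC1a by 41.5 times in DC1b (log2 5.36 ± 0.49, SE, adjusted p = 4.4e-06), by 115 times in DC2 (6.68 ± 0.53, adjusted p = 7.51e-07) and by 16 times in DC3 (3.94 ± 0.46, adjusted p = 0.000189). It was lower in DC3 than in DC2 (log2 -2.74 ± 0.45, adjusted p = 0.00321). DC1b and DC2 were not called different (log2 1.32, adjusted p = 0.327).

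*Clec4a4*, whose product is the 33D1 antigen, was found mainly in DC2. No read was assigned to it in either untreated DC1a library, against 280 and 219 CPM in DC2, 19.4 and 6.41 in DC1b, and 0 and 8.45 in DC3. Against the floor of 3 counts per library, untreated DC2 was at least 2022-fold higher than DC1a and DC1b at least 105-fold higher, but neither difference was called (adjusted p = 0.0688 and 0.265). The bound of DC1b was 52.0 without its pool 1 and 157 without its pool 2. DESeq2 called both, and so did edgeR without the filter on low counts, with adjusted p of 0.00239 for DC2 and 0.0411 for DC1b. The 4 TLI DC1a libraries held 0, 0, 0.225 and 0 CPM, while TLI DC1b held 11.5, 5.05, 38.8 and 41.0, DC2 98.8, 129 and 129, and DC3 8.98, 1.49, 0 and 0. In TLI mice the difference of DC2 from DC1a was called (adjusted p = 0.0166), and the call was lost without DC1a pool 1, 2 or 4 (adjusted p = 0.0567, 0.0533 and 0.0617). Since 3 of the 4 DC1a libraries were at 0, no fold is given.

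*Clec4a3* and *Clec4a1*, the DCIR3 and DCIR4 genes, were nearly absent from DC1a and strong in both DC1b and DC2. *Clec4a3* was at 0.185 and 2.51 CPM in untreated DC1a, 172 and 194 in DC1b, 260.5 and 260.2 in DC2, and 1.68 and 0.143 in DC3. DC1a and DC3 overlapped at the bottom, and DC1b and DC2 lay far above them. The size of these differences turned on single libraries, since the mean of DC2 over that of DC1a was 104 times without DC1a pool 1 and 1407 times without DC1a pool 2, and over that of DC3 it was 1825 times without DC3 pool 1 and 155 times without DC3 pool 2. The differences of DC2 from DC1a (log2 7.60 ± 1.81, SE, adjusted p = 0.0383) and of DC3 from DC2 (-8.16 ± 1.86, adjusted p = 0.0488) were called, and those of DC1b from DC1a (7.09, adjusted p = 0.0793) and of DC3 from DC1b (-7.65, adjusted p = 0.0951) were not. With the pool as a block both calls were lost (adjusted p = 0.0677 and 0.0865).

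The untreated *Clec4a3* calls also rested on single libraries. That of DC2 against DC1a was lost in 10 of the 23 fits that left out 1 library, with adjusted p of 0.406 and 0.129 without untreated DC1a pools 1 and 2, 0.0945 and 0.111 without untreated DC2 pools 1 and 2, 0.0563 and 0.0565 without untreated DC1b pools 1 and 2, and 0.0517, 0.0501, 0.0534 and 0.051 without TLI DC1a pool 4, TLI DC1b pool 2, TLI DC2 pool 1 and TLI DC2 pool 3. That of DC3 against DC2 was lost in 16 of the 23 and reached an adjusted p of 0.383 without untreated DC3 pool 2. It was kept without either untreated DC1a library, TLI DC1a pool 2 or 3, or TLI DC3 pool 1, 3 or 4.

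After TLI, *Clec4a3* was at 0.688, 0.197, 5.34 and 1.75 CPM in DC1a, 387, 372, 833 and 1056 in DC1b, 585, 698 and 996 in DC2, and 29.2, 7.86, 1.43 and 2.19 in DC3. DC1b and DC2 overlapped, and DC3 pool 1 was the highest of the DC3 libraries. DC1b exceeded DC1a by 332 times (log2 8.46 ± 1.33, SE, adjusted p = 0.00167) and DC2 exceeded it by 381 times (8.64 ± 1.35, adjusted p = 0.00112). Without TLI DC1a pool 3, the highest of that group, these were 755 and 866 times. DC3 was lower than DC1b (log2 -5.69 ± 1.21, adjusted p = 0.0267) and DC2 (-5.87 ± 1.25, adjusted p = 0.022). The means of DC1b and DC2 were 65.0 and 74.6 times that of DC3, and 173 and 199 times without TLI DC3 pool 1. Both DC3 calls were lost with the pool as a block (adjusted p = 0.0515 and 0.0599). That against DC1b was also lost without TLI DC3 pool 2, 3 or 4 (0.089, 0.0827 and 0.0886). In a fit chosen after seeing the data, it was lost without TLI DC1b pools 1 and 4, the libraries with the highest neutrophil sums (0.0783). The call against DC2 was lost without the same TLI DC3 libraries (0.0777, 0.0649 and 0.0751) or without TLI DC2 pool 1 (0.084).

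*Clec4a1* was at 0.666 and 0 CPM in untreated DC1a, 52.6 and 30.4 in DC1b, 133 and 89.9 in DC2, and 5.36 and 6.60 in DC3. The 4 subsets did not overlap, and DC3 lay between DC1a and DC1b. *Clec4a1* was the member called between untreated DC1b and DC1a (log2 6.92 ± 1.19, SE, adjusted p = 0.00743), a call lost without untreated DC1a pool 2 (adjusted p = 0.0667). It was also called higher in DC2 than in DC1a (log2 8.35 ± 1.26, adjusted p = 0.00158). The 2 DC1a libraries held 18 and 0 counts, and against pool 1 alone DC1b was 62.3 times and DC2 168 times higher. The difference of DC3 from DC2 (log2 -4.22, adjusted p = 0.0669) did not pass.

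In TLI mice *Clec4a1* was at 0.567, 0.632, 0.418 and 3.69 CPM in DC1a, 67.5, 84.5, 196 and 375 in DC1b, 144, 241 and 393 in DC2, and 2.94, 7.04, 9.34 and 9.24 in DC3. DC1b and DC2 overlapped and stood above both other subsets. It was 136 times higher in DC1b (log2 7.05 ± 0.83, SE, adjusted p = 8.73e-05) and 196 times higher in DC2 (7.52 ± 0.86, adjusted p = 4.95e-05) than in DC1a. The DC1a mean was carried by pool 4, without which these were 335 and 482 times. It was 25.3 times higher in DC1b (adjusted p = 0.00446) and 36.4 times higher in DC2 (adjusted p = 0.00222) than in DC3.

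*Clec4b1* encodes DCAR, the activating counterpart of the DCIR receptors, and per kilobase of exon it was the member with the highest level in DC3. It was at 18.6 and 18.4 CPM in untreated DC1a, 66.6 and 97.9 in DC1b, 283 and 108 in DC2, and 158 and 119 in DC3. DC2 and DC3 overlapped, and both stood above DC1b and DC1a. It was called between DC2 and DC1a (10.6 times, or 5.86 times without untreated DC2 pool 1, log2 3.40 ± 0.54, SE, adjusted p = 0.00242) and was the member called between DC3 and DC1a (7.47 times, 2.90 ± 0.53, adjusted p = 0.0268). The difference of DC1b from DC1a was at log2 2.15 (adjusted p = 0.0613).

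Leaving out single libraries ended these untreated *Clec4b1* calls. That of DC2 was lost without untreated DC1a pool 1 or 2 (adjusted p = 0.0636 and 0.0562). That of DC3 was lost without untreated DC1a pool 1 or 2 (0.405 and 0.371), untreated DC3 pool 1 or 2 (0.147 and 0.116), TLI DC1b pool 2 or TLI DC2 pool 1 (0.052 each).

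After TLI, *Clec4b1* was at 5.14, 3.16, 18.5 and 22.1 CPM in DC1a, 248, 171, 320.5 and 300.0 in DC1b, 513, 1032 and 1240.1 in DC2, and 174, 89.2, 299 and 318 in DC3. DC1b and DC3 overlapped, DC2 was above them and DC1a below. All 3 differences from DC1a were called, at 21.3 times for DC1b (log2 4.76 ± 0.41, SE, adjusted p = 2.66e-06), 76 times for DC2 (6.27 ± 0.44, adjusted p = 2.08e-07) and 18.0 times for DC3 (4.37 ± 0.40, adjusted p = 1.73e-05). DC3 was lower than DC2 (log2 -1.90 ± 0.38, adjusted p = 0.014), a call lost without TLI DC2 pool 1 (0.0744) or TLI DC3 pool 2, 3 or 4 (0.0596, 0.0577 and 0.0525), and with no batch term (0.131). DC3 and DC1b were not called different (log2 -0.39, adjusted p = 0.714).

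*Clec4b2*, the nearby DCAR1 gene whose start region is shown above, had the opposite order over DC1a and DC2. It was at 128 and 124 CPM in untreated DC1a, 13.1 and 16.5 in DC1b, 0.0764 and 0 in DC2, and 2.19 and 14.4 in DC3. Untreated DC2 held 2 counts and 0 counts, and the gene was called lower there than in DC1a (adjusted p = 0.00934). In TLI mice it was at 59.9 to 188 CPM in DC1a, 20.0 to 89.0 in DC1b, 0.157 to 28.6 in DC2 and 10.2 to 30.0 in DC3, and it was not called between TLI DC2 and DC1a (log2 -3.91, adjusted p = 0.0945). None of its 76-base windows occurred in a member.

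**Figure D4:**
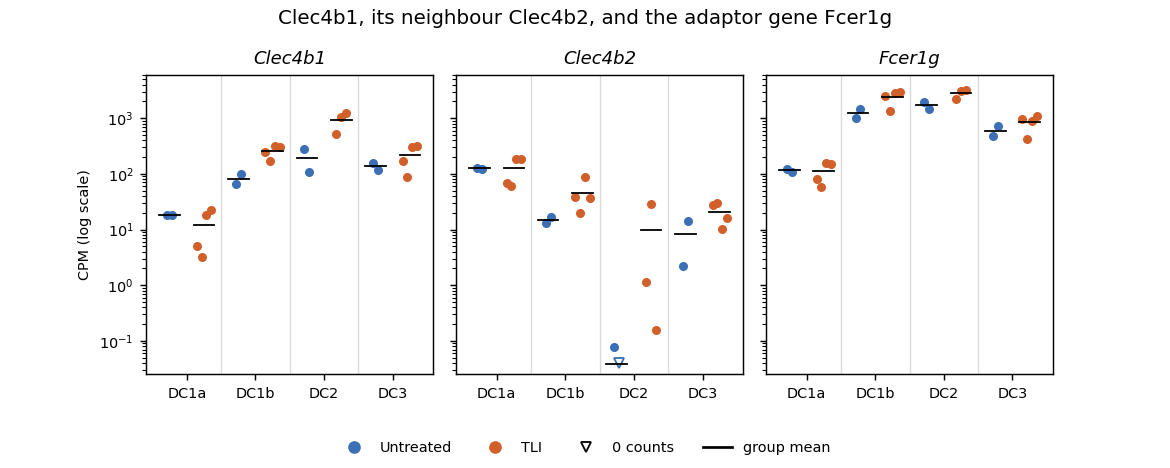
CPM of *Clec4b1*, of the nearby *Clec4b2* and of the adaptor gene *Fcer1g* in every library on a log scale, by sorted subset (untreated in blue, TLI in orange, an open triangle for 0 counts, black line the group mean). *Clec4b2* was highest in DC1a, where *Clec4b1* and *Fcer1g* were lowest.

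*Clec4n*, which encodes the mannan receptor Dectin-2, was the member with no call in any of the 12 comparisons of subsets. Untreated DC1a held 3.44 and 7.76 CPM, DC1b 41.5 and 60.8, DC2 42.9 and 102, and DC3 0 and 15.1. TLI DC1a held 1.09, 22.1, 6.05 and 0.0970 CPM, DC1b 278, 215, 107 and 13.3, DC2 266, 46.4 and 55.2, and DC3 40.1, 13.1, 0.0973 and 0. In TLI DC1b, DC2 and DC3 every library of batch 1 lay above those of batch 2, and TLI DC1b overlapped DC1a through its pool 4. The difference of DC2 from DC1a was at log2 3.70 (adjusted p = 0.496) in untreated mice and 4.33 (adjusted p = 0.183) in TLI mice, and that of TLI DC1b from DC1a at 4.34 (adjusted p = 0.246). DESeq2 called 4 of the 12, all in TLI mice (adjusted p = 0.0084 to 0.0307).

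*Clec4d*, the gene of MCL, was scarce in untreated mice. It was at 0.962 and 0 CPM in untreated DC1a, 0.199 and 2.92 in DC1b, 3.13 and 3.18 in DC2, and 0 in both DC3 libraries. No untreated difference was called. TLI DC1a held no count in any of 4 libraries, while DC1b held 27.3, 41.9, 12.8 and 68.7 CPM, DC2 24.8, 7.84 and 0.251, and DC3 0, 1.46, 0 and 0.0863. Against the floor of 3 counts per library, TLI DC1b was at least 310-fold higher than DC1a (adjusted p = 0.0241) and DC2 at least 90.3-fold higher (adjusted p = 0.0316). The DC2 mean was carried by its pool 1, without which the bound was 33.3-fold.

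Both *Clec4d* calls were lost with the pool as a block (adjusted p = 0.0568 and 0.0581). The DC1b call was also lost without any 1 of the 4 TLI DC1a libraries (0.073 to 0.0764), and, in a fit chosen after seeing the data, without TLI DC1b pools 1 and 4, the libraries with the highest neutrophil sums (0.0728). The DC2 call was lost without any 1 TLI DC1a library (0.0746 to 0.078) or without TLI DC2 pool 1 or 3 (0.0611 and 0.0742).

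*Clec4e* encodes Mincle, the receptor for the mycobacterial cord factor. It was at 0.296 and 0 CPM in untreated DC1a, 8.41 and 15.98 in DC1b, 16.3 and 13.2 in DC2, and 1.84 and 0.107 in DC3. DC1b and DC2 overlapped and stood above both other subsets, but no untreated difference was called (DC1b from DC1a log2 6.31, adjusted p = 0.216, and DC2 from DC1a 6.58, adjusted p = 0.13). After TLI it was at 0, 1.74, 1.51 and 0.259 CPM in DC1a, 51.6, 47.7, 24.4 and 78.2 in DC1b, 33.3, 22.6 and 24.8 in DC2, and 0.0982, 0.142, 0.324 and 0 in DC3. DC1b and DC2 again overlapped far above DC1a and DC3. DC1b was 358 times higher than DC3 (log2 of DC3 against DC1b -8.44 ± 1.56, SE, adjusted p = 0.00986) and DC2 was 191 times higher than DC3 (-7.53 ± 1.53, adjusted p = 0.0161). The 4 DC3 libraries held 2, 4, 10 and 0 counts, so that 2 of them lay at or under the floor, and without pool 3 these were 630 and 336 times. DC1b was 57.5 times higher than DC1a (log2 5.84 ± 1.38, adjusted p = 0.0429), whereas DC2 missed the threshold against DC1a (4.93, adjusted p = 0.0559).

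The *Clec4e* call of TLI DC1b against DC1a was lost with the pool as a block (adjusted p = 0.0515) and in 12 of the 23 fits that left out 1 library. Its adjusted p was 0.0724, 0.0811, 0.107 and 0.149 without TLI DC1a pools 1 to 4, 0.0677, 0.0533 and 0.0986 without TLI DC1b pools 1, 3 and 4, 0.0529 without TLI DC2 pool 4, and 0.0612 to 0.0623 without an untreated DC1b or DC2 library. Without TLI DC1b pools 1 and 4 together it was 0.161, and *Clec4e* was then also not called between DC3 and DC1b (0.0534). The call between TLI DC3 and DC2 was lost without TLI DC3 pool 1 or 2 (0.0529 and 0.0573).

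*Clec7a*, the Dectin-1 gene, was detected in all 23 libraries. It was at 18.9 and 27.6 CPM in untreated DC1a, 111 and 195 in DC1b, 235 and 361 in DC2, and 9.98 and 14.6 in DC3. No 2 of the 4 subsets overlapped, DC3 being the lowest. DC2 was 24.2 times higher than DC3 (log2 of DC3 against DC2 -4.60 ± 1.05, SE, adjusted p = 0.0488). This call was lost with the pool as a block (adjusted p = 0.0785) and in 19 of the 23 fits that left out 1 library, up to 0.344 without untreated DC3 pool 1 and 0.308 without pool 2, and was kept without TLI DC1a pool 3 or TLI DC3 pool 1, 3 or 4. DC2 was 12.8 times and DC1b 6.57 times higher than DC1a in the means, at adjusted p of 0.0748 and 0.282.

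In TLI mice *Clec7a* was at 34.2, 37.4, 4.67 and 14.7 CPM in DC1a, 197, 288, 372 and 415 in DC1b, 348, 238 and 366 in DC2, and 13.7, 32.9, 41.6 and 2.45 in DC3. DC1a overlapped DC3, and DC1b overlapped DC2. DC1b was higher than DC1a (14.0 times, log2 3.95 ± 0.74, SE, adjusted p = 0.00781) and DC2 likewise (14.0 times, 3.96 ± 0.76, adjusted p = 0.00602). DC3 was lower than DC1b (log2 -3.86 ± 0.72, adjusted p = 0.00986) and than DC2 (-3.86 ± 0.74, adjusted p = 0.00997). The call between DC1b and DC1a was lost without TLI DC1a pool 4 (adjusted p = 0.0519).

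The library labelled TLI DC1b pool 4, which held almost no *Cd8a*, did not decide most of these calls. Without it, 6 of the 7 calls of TLI DC1b against DC1a were kept, *Clec4e* being the one lost, and all 4 calls of TLI DC3 against DC1b were kept. Without it the mean of TLI DC1b over that of DC1a was 87.6 times for *Clec4a1*, 36.7 for *Clec4a2*, 266 for *Clec4a3*, 20.2 for *Clec4b1*, 47.0 for *Clec4e* and 12.6 for *Clec7a*, and at least 225 times for *Clec4d*. Over DC3 it was then 16.3 times for *Clec4a1*, 52.1 for *Clec4a3*, 292 for *Clec4e* and 12.6 for *Clec7a*. Within batch, where 2 libraries remained in each group, batch 1 alone called 0 members of TLI DC1b against DC1a, DC3 against DC1a and DC3 against DC1b, and batch 2 alone called 3, 1 and 1. Batch 2 alone called 4 members between TLI DC2 and DC1a and 2 between DC3 and DC2, and batch 1 holds a single TLI DC2 library. No call reversed its direction within either batch. The share of all genes called in these within-batch fits is not given here, so their counts are not a result about the members. With no batch term 7 of the 34 calls were lost, those of *Clec4a3* in untreated DC2 against DC1a and DC3 against DC2 (adjusted p = 0.0604 and 0.0687), of *Clec4b1* in untreated DC2 and DC3 against DC1a (0.0726 and 0.498) and TLI DC3 against DC2 (0.131), of *Clec7a* in untreated DC3 against DC2 (0.0711) and of *Clec4e* in TLI DC1b against DC1a (0.05002).

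Levels were compared between genes per kilobase of merged exon, since the transcripts differ in length. In untreated DC1a *Clec4b1* led with a mean of 23.6 CPM per kilobase, followed by *Clec7a* at 8.82 and *Clec4n* at 3.95. In untreated DC1b the order began with *Clec4a3* (138 CPM per kilobase), *Clec4b1* (105) and *Clec7a* (58.0). In untreated DC2 it began with *Clec4a4* (321), *Clec4b1* (249.7), *Clec4a3* (196) and *Clec7a* (113), the first pair of which overlapped in CPM. In untreated DC3 *Clec4b1* stood at 176 CPM per kilobase and the next member, *Clec4a2*, at 14.9.

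After TLI, *Clec4b1* led in DC1a at 15.6 CPM per kilobase, in DC2 at 1184 and in DC3 at 280.3, and *Clec4a3* led in DC1b at 499. *Clec4a4*, first in untreated DC2, came after *Clec4b1*, *Clec4a3* and *Clec4a1* in TLI DC2 at 153 CPM per kilobase, next to *Clec4a2* at 151. *Clec4e* and *Clec4d* were the lowest pair in untreated DC1b and DC2 and in TLI DC1b and DC2. With the longest transcript in place of merged exons the order stayed the same in 4 of the 8 groups and moved members by at most 2 places in the others.

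No member was called between TLI and untreated mice in any subset. The share of all genes called was 0.0102% in DC1a, 0.413% in DC1b, 0.0612% in DC2 and 0.0255% in DC3. In the same order, 3, 3, 1 and 1 members had an unadjusted p under 0.05, beside 1912, 2425, 1765 and 2044 of all 19597 genes. DESeq2 called *Clec4b1* in DC1a (log2 -1.50, adjusted p = 0.0481) and *Clec4a2* in DC1b (1.87, adjusted p = 0.0114). In edgeR the difference of *Clec4a2* in DC1b was at log2 1.89 ± 0.56 (SE, adjusted p = 0.17), its 4 TLI libraries at 106 to 214 CPM all lying above the 34.7 and 36.2 CPM of untreated mice. *Clec4b1* was at log2 -1.58 ± 0.45 in DC1a (adjusted p = 0.321). There TLI pool 3 at 18.5 CPM lay between the untreated libraries at 18.4 and 18.6 CPM. Pool 4 at 22.1 CPM lay above them, and pools 1 and 2 lay below them. *Clec4b1* was at log2 1.28 ± 0.49 in DC2 (adjusted p = 0.468), and *Clec4d* was at 5.88 ± 2.68 in DC1b (adjusted p = 0.395), where the 4 TLI libraries with 12.8 to 68.7 CPM lay above the untreated ones with 0.199 and 2.92 CPM. TLI DC1b was the group with the high neutrophil and monocyte sums given above. In batch 1 alone *Clec4a2* in DC1b was at log2 2.02 (adjusted p = 0.259), *Clec4b1* in DC1a at -2.20 (0.343) and *Clec4d* in DC1b at 4.47 (0.515).

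Nor did the test of whether a difference between subsets was unequal in TLI and untreated mice call a member. Over 6 such tests and 9 members, 0 of 54 differences passed, 12 had an unadjusted p under 0.05, the lowest adjusted p was 0.267, and DESeq2 called 5. Of all 19597 genes, 815 to 1714 had an unadjusted p under 0.05, depending on the test. The share of all genes called was 0.0357% for DC1b against DC1a, 0.0255% for DC2 against DC1a, 0% for DC3 against DC1a, 0.122% for DC2 against DC1b, 0.0204% for DC3 against DC1b and 0.0357% for DC3 against DC2. The larger number of calls in TLI than in untreated mice is thus not a shown difference between treatments, and the TLI groups held more libraries.

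The FcR gamma adaptor that 4 of the receptors need followed a similar order. *Fcer1g* was at a mean of 116 CPM in untreated DC1a, 1219 in DC1b, 1710.0 in DC2 and 599.9 in DC3, and at 113, 2418, 2868 and 842 after TLI. It was higher than in DC1a in all 3 other subsets, both in untreated mice (log2 3.40, 3.89 and 2.37, adjusted p = 0.000356, 5.91e-05 and 0.0116) and in TLI mice (4.49, 4.63 and 2.97, adjusted p = 1.34e-07, 1.03e-07 and 1.73e-05). It was lower in TLI DC3 than in DC1b (log2 -1.51, adjusted p = 0.00593) and DC2 (-1.65, adjusted p = 0.00351). Of the other 10 genes of the activating path, *Malt1* was called once, higher in untreated DC2 than in DC1a (log2 3.40, adjusted p = 0.00433).

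Over the 11 activating genes and 12 comparisons of subsets, 9 of 132 tests were called, 33 had an unadjusted p under 0.05, and DESeq2 called 18. Of all 19597 genes, 0.184% to 3.4% were called, depending on the comparison, and 1464 to 3461 had an unadjusted p under 0.05. The phospholipase gene *Plcg2*, the kinase gene *Prkcd* and the scaffold gene *Bcl10* averaged 128, 112 and 72.3 CPM over the libraries and were not called. *Syk* was at a mean of 23.6 CPM in untreated DC1a, 208 in DC1b, 156 in DC2 and 52.0 in DC3 and was not called. *Card9*, the adaptor below Syk, averaged 1.03 CPM. None of the 4 genes below the inhibitory motif, *Inpp5d*, *Lyn*, *Ptpn6* and *Ptpn11*, which averaged 207, 155, 139 and 38.7 CPM, was called in 48 tests (6 at an unadjusted p under 0.05 and 3 called by DESeq2). Beside the small share of all genes called, 0 calls in 48 tests is not a result about these genes.

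Of 13 genes that respond to Dectin and Mincle signalling, 12 were tested between subsets and 19 of 144 tests were called, while 57 had an unadjusted p under 0.05 and DESeq2 called 39. Of all 19597 genes, 0.184% to 3.4% were called and 1464 to 3461 had an unadjusted p under 0.05, depending on the comparison. The inflammatory cytokine gene *Il1b*, which averaged 1945 CPM, was higher in untreated DC2 than in DC1a (log2 1.87, adjusted p = 0.00864) and DC1b (2.08, adjusted p = 0.00921) and lower in DC3 than in DC2 (-2.28, adjusted p = 0.00352). The inflammasome gene *Nlrp3* was higher in untreated DC2 than in DC1a (log2 3.25, adjusted p = 0.0353) and DC1b (4.97, adjusted p = 0.00873). The neutrophil chemokine gene *Cxcl2* was higher in TLI DC1b (log2 3.91, adjusted p = 0.00167) and TLI DC2 (4.24, adjusted p = 0.000815) than in DC1a. *Tnf* and *Il12b* were both lower in TLI DC3 than in DC1a and DC1b.

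Other C-type lectins had other orders over the subsets. Of 7 further lectin genes of chromosome 6, 13 of 84 tests between subsets were called, 34 had an unadjusted p under 0.05, and DESeq2 called 24. The share of all genes called between subsets was 0.184% to 3.4%, and 1464 to 3461 of 19597 had an unadjusted p under 0.05, depending on the comparison. *Clec9a*, the receptor for actin of dead cells that marks the CD8 lineage, was lower in untreated DC2 than in DC1a (log2 -8.90, adjusted p = 5.67e-08), and so was *Clec12a* (-1.54, adjusted p = 0.00864). *Clec1a* was called once, lower in TLI DC2 than in DC1a (log2 -2.81, adjusted p = 0.0417), and *Clec1b*, which averaged 14.8 CPM, was not called. Of 12 more lectin genes, listed apart, 22 of 144 tests were called, 74 had an unadjusted p under 0.05, and DESeq2 called 68. Here *Cd209a* was higher in untreated DC2 than in DC1a (log2 6.02, adjusted p = 9.2e-05) and *Cd207*, the langerin gene, was lower (-11.51, adjusted p = 0.000624). *Cd209d* and *Cd302*, which averaged 134 and 46.9 CPM, were not called. Between TLI and untreated mice 0 of 44 tests of the activating genes, 0 of 16 of the inhibitory genes, 0 of 48 of the response genes and 0 of 48 of these 12 lectins were called. Of these tests, 4, 3, 8 and 14 were at an unadjusted p under 0.05, and DESeq2 called 2, 0, 5 and 14. Of all 19597 genes, 1765 to 2425 had an unadjusted p under 0.05, depending on the subset. Since edgeR called 0.0102% to 0.413% of all genes, 0 calls is not a result about these lists. The 2 of 28 calls among the 7 lectins given first were *Clec9a*, higher in TLI DC2 (log2 4.56, adjusted p = 4.65e-05), and *Clec12a*, lower in TLI DC1b (-1.24, adjusted p = 0.0333).

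Across the 23 libraries the members varied together to different degrees, given here as a description over libraries that share pools, depth and subset. Pearson's r of log2 CPM was highest between *Clec4a2* and *Clec4b1* (0.922) and lowest between *Clec4b1* and *Clec4n* (0.261). The genes outside the cluster most like *Clec4b1* were *Ms4a6c* (r 0.968), *S100a6* (0.945) and *Ifi27l2a* (0.938), and those most like *Clec4a2* were *Ms4a4c* (0.974), *S100a4* (0.953) and *Fcer1g* (0.946). *Clec4a3* was closest to *Tnfsf13os* (0.948), *Pilra* (0.943) and *Colec12* (0.940), and *Clec4a1* to *Sirpb1c* (0.935), *Sirpb1b* (0.933) and *Tnfsf13os* (0.929). *Clec4a4* was closest to *Mmp12* (0.930), *Camk2d* (0.921) and *Map3k5* (0.895), and *Clec7a* to *Arhgef3* (0.931), *Tnfsf13os* (0.907) and *Ctss* (0.906). *Clec4e* was closest to *Ms4a4a* (0.937), *Tlr8* (0.932) and *Cd300ld* (0.931), *Clec4d* to *Itgb5* (0.871), *Ctss* (0.870) and *Nrg1* (0.861), and *Clec4n* to *Pla2g7* (0.860), *Tmem176b* (0.852) and *Slc2a6* (0.846).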

How the data were processed

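Spleen DCs were sorted, cDNA was amplified with a SMARTseq v4 UltraLow kit, which does not mark strand, and libraries were sequenced by the authors. Per the study's methods and processing notes, the authors trimmed reads with Trimmomatic, aligned them to GRCm38 with HISAT2 and assembled and counted them with StringTie. The deposited values are estimated counts per gene, not normalized, in 23 columns that were all mapped to samples. StringTie derives such counts from coverage, so edgeR's quasi-likelihood test (edgeR 4.0.16, R 4.3.3) was run on them as rounded counts, although counts of reads had been planned for. Genes were filtered by filterByExpr on the 8 groups, scaled by TMM (factors 0.840 to 1.18) and fitted in 1 model over all libraries with group and batch, with 14 residual degrees of freedom and a common biological coefficient of variation of 1.08. The batch term is estimated from the TLI pools alone. Total counts per library were 19256447 to 36997890, and the groups held 2 to 4 libraries. Replicates are pools of mice, and p-values measure the spread between pools. Pool numbers were taken to pair subsets of the same treatment, which the labels do not state outright. The main fit holds no pool term and treats the libraries as independent. The residuals of same-numbered libraries correlated at 0.0801 to 0.393 in TLI mice (21 pairs) and -0.00585 to 0.0159 in untreated mice, where pools 1 and 2 mirror each other and give 6 distinct values.

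The 9 members, the gene lists and the tests were chosen with earlier results of these data known. Named were all members, for each the 3 genes with the highest Pearson r of log2 CPM among genes with a mean of at least 5 CPM, and of each pathway list the 4 most abundant genes and, where 5 or fewer, those called. *Syk*, *Card9* and *Nlrp3*, outside this rule, were named after their values were seen. Marker lists covered DCs, both lineages of conventional DCs, plasmacytoid DCs, monocytes and macrophages, neutrophils, erythroid, NK, B and T cells. Symbols, exon lengths and positions came from GENCODE on GRCm38 and start regions from RefSeq on GRCm38.p6. Alternatives were DESeq2 1.42.0, RLE size factors, no filter and a filter of 10 counts in 2 libraries, each treatment alone, each batch alone, no batch term, the pool as a block, and leaving out each library. The fitting code was also run on a simulated comparison with no batch or pool effect, which checked the code and not these calls. No protein sequence was used here.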

Additional observations from a re-analysis of the deposited data

Results flagged for a closer look

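In groups of 4 libraries, 26 combinations of member and group were examined with Dixon's ratio at its 95% critical value, and 4 stood apart. Chance alone exceeds that value in about 1 of 20 for normally distributed values, which CPM with zeros are not. The 4 are therefore not set against that rate. For *Clec4a4* in TLI DC1a the ratio was 1 by construction, since the other 3 pools held no count. *Clec4a1* was at 3.69 CPM in TLI DC1a pool 4 against 0.418 to 0.632 CPM in the other 3 pools. *Clec4a4* was at 0.225 CPM in TLI DC1a pool 3, while the other 3 pools held no count, and at 8.98 CPM in TLI DC3 pool 1 against 1.49, 0 and 0 CPM. *Clec4d* was at 1.46 CPM in TLI DC3 pool 2 against 0, 0 and 0.0863 CPM. All 4 values are in subsets where the gene was otherwise scarce. Without TLI DC1a pool 4 the mean of *Clec4a1* was 335 times higher in TLI DC1b and 482 times higher in TLI DC2 than in DC1a, in place of 136 and 196 times, and no call of *Clec4a1* was lost, nor was a call of *Clec4a4* without TLI DC1a pool 3 or TLI DC3 pool 1.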

How the results depend on the processing

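Over 198 pairs of member and comparison, 6129 alternative values were computed. Of these 5902 stayed on the same side of the threshold, and 148 lost a call (93 of them on leaving out 1 library). A call was gained in 79 (39 under DESeq2 and 14 without the filter), and 0 calls reversed. A change of sign where neither fit called the gene was counted as staying on the same side. For example, *Clec4a3* in TLI DC3 against DC1a was at log2 5.39 in batch 1 alone and -0.888 in batch 2 alone, called in neither. Of 34 calls, 6 were kept under every alternative: *Clec4a1* and *Clec4a2* in untreated DC2 against DC1a, and *Clec4a1*, *Clec4a2*, *Clec4a3* and *Clec4b1* in TLI DC2 against DC1a. Where not stated otherwise the cause of a change was not tested.

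Numbers of members called, first as reported, moved as follows. The share of all genes called under each alternative, here and below, is not given. A changed number is therefore not a result about the members. Under DESeq2 they went from 1 to 7 for untreated DC1b against DC1a, 4 to 7 for DC2 against DC1a, 1 to 4 for DC3 against DC1a, 0 to 1 for DC2 against DC1b, 0 to 3 for DC3 against DC1b and 2 to 5 for DC3 against DC2. In TLI mice DESeq2 moved DC3 against DC1a from 2 to 5, DC2 against DC1b from 0 to 1 and DC3 against DC1b from 4 to 7. For TLI against untreated it gave 1 in DC1a and 1 in DC1b, and for the unequal differences 3 (DC1b against DC1a), 1 (DC2 against DC1a) and 1 (DC3 against DC1a), all from 0. Without the filter the untreated numbers became 4 for DC1b and 2 for DC3 against DC1a, 1 for DC2 against DC1b and 2 for DC3 against DC1b. With the untreated libraries alone they became 0 for DC1b and 0 for DC3 against DC1a, 1 for DC3 against DC1b and 1 for DC3 against DC2. Without the batch term they became 2 for DC2 against DC1a, 0 for DC3 against DC1a and 0 for DC3 against DC2, and RLE size factors gave 1 for DC3 against DC2. With fewer libraries, batch 1 alone gave 0 for TLI DC1b against DC1a, DC3 against DC1a and DC3 against DC1b, and batch 2 alone gave 3, 1 and 1, with 4 for DC2 against DC1a and 2 for DC3 against DC2. Without TLI DC1b pools 1 and 4, chosen after seeing the data, TLI DC3 against DC1b gave 2 and untreated DC3 against DC2 gave 0.

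When pools entered as a replicate block instead of batch, untreated DC3 against DC2 went from 2 to 0. The pairing ended 8 calls in all, each printed beside its result, gained 0 and changed no other call. TLI and untreated mice share no pool and have no such fit.

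Leaving out 1 library at a time gave 0 to 2 for untreated DC1b against DC1a, 2 to 6 for DC2 against DC1a, 0 to 1 for DC3 against DC1a, 0 to 1 for DC2 against DC1b and DC3 against DC1b, and 0 to 3 for DC3 against DC2. In TLI mice it gave 4 to 8 for DC1b against DC1a (4 without TLI DC1a pool 4) and 3 to 6 for DC3 against DC2 (3 without TLI DC3 pool 2). Where a group was left with 1 library, its spread is assumed to be like that of the other groups. Depth limits *Clec4a4* and *Clec4d*, whose DC1a libraries are at or near 0, so that their sizes are lower bounds.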
